A study of Mus musculus with 5 samples.

Results

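Intermediate filament genes were followed across 5 RNA-seq libraries of mouse embryonic fibroblasts: Nes, Vim, Des, Synm, Lmna, Lmnb1, Lmnb2, Krt8, Krt18 and Krt19. These 10 genes, of 23337 in the deposited table, were matched by symbol. The family was selected on the high value of Nes in the libraries labelled KO, so the difference in Nes between the groups is given as a description, with no test. The other 9 genes were taken by family, with earlier results of these data known. The fibroblasts were of strain 129Sv, immortalized with the SV40 T antigen and grown under normal conditions, and carried either wild type SIRT3 (labelled WT, 3 libraries) or the genotype SIRT3 -/- (labelled KO, 2 libraries). All 5 libraries thus come from cells with the viral antigen. Whether libraries of a genotype came from separate lines or cultures is not stated, so each p-value reflects only how far these particular libraries scattered, which could be technical scatter.

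Intermediate filaments are rope-like polymers that give cells and nuclei mechanical strength. Vimentin, from Vim, is the main filament of fibroblasts and other mesenchymal cells, and desmin, from Des, takes its place in muscle. Nestin and synemin, from Nes and Synm, are long proteins that assemble together with vimentin or desmin, and nestin is best known from progenitor cells of the nervous system and of muscle. The keratins of simple epithelia form filaments from paired chains, where Krt8 gives the type II chain and Krt18 or Krt19 the type I chain. The lamins, from Lmna, Lmnb1 and Lmnb2, form the lamina under the nuclear envelope, and Lmna gives both lamin A and lamin C by splicing.

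Windows of 250 bases before the RefSeq start sites were searched for the GC box (GGGCGG), the CCAAT box (CCAAT) and the TATA box (TATAAA), each on both strands. RefSeq windows (GRCm38.p6) were matched for 8 of the members. The windows of Nes, which stood 6.53-fold higher in the libraries labelled KO, of its partner Synm, 1.69-fold higher there, and of Des, with almost no reads, are shown, with motif matches in capitals. They lie at chr3:87970843-87971092 (plus strand), chr7:67759743-67759992 (minus strand) and chr1:75360042-75360291 (plus strand).
Nes: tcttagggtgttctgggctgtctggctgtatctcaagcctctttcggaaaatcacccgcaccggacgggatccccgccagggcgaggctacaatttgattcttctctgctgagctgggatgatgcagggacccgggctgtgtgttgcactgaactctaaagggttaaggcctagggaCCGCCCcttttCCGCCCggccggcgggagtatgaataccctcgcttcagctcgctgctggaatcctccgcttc
Synm: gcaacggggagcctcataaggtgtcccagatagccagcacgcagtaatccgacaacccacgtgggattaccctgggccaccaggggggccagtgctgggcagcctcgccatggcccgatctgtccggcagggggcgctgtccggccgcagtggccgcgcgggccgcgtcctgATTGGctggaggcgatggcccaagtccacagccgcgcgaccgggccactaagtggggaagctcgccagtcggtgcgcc
Des: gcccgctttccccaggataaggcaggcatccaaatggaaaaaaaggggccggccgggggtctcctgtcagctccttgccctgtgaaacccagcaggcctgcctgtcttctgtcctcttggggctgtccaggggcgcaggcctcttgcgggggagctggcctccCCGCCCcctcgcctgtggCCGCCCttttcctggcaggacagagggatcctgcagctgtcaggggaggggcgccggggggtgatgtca
The windows of Nes and Des each held 2 GC boxes and none of the other motifs, and that of Synm held 1 CCAAT box. Of 32851 mouse windows of this length, 32.7% held a GC box, 33.8% a CCAAT box and 12.4% a TATA box. Among the members only the window of Vim held a TATA box, and in GENCODE M21 that window lies wholly within Vim exons. The GC content of the shown windows was 58.8% for Nes, 70.0% for Synm and 67.2% for Des, beside a median of 52.4% over all windows.

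The libraries held between 33473103 and 41758681 reads, recovered from the deposited values. Sirt3, the targeted gene, had more normalized reads in the libraries labelled KO (200.4 and 216.8) than in those labelled WT (118.4 to 169.7), and higher or lower is therefore always stated by the labels. Gene totals do not separate exons and cannot show a deleted part of Sirt3. The labelled cell type was checked by 11 fibroblast markers. The collagen genes Col1a1 and Col1a2 averaged 472 and 495 RPKM (reads scaled for transcript length and library depth) in WT and 612 and 738 RPKM in the libraries labelled KO, whereas Lum and Fap had 2 and 17 reads in all libraries together. Of the 9 markers tested, 2 rose, both of them these collagens, and 5 fell, among them Pdgfra, from a mean of 80.4 to 5.02 RPKM, Col3a1, from 189 to 39.6 RPKM, and Dcn, from 2.65 to 0.515 RPKM.

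Per length, the members ranged from one of the most abundant transcripts of these cells to transcripts that were not detected in most libraries. Vim averaged 2516 ± 39.1 RPKM (SD, n = 3) in WT and 1924 ± 23.2 RPKM (SD, n = 2) in the libraries labelled KO, and ranked 3 among the 13062 genes tested in both groups. Lmna followed at 457 ± 13.2 and 328.3 ± 0.131 RPKM. In WT the order then ran from Lmnb1 (75.6 RPKM) over Lmnb2 (35.1), Nes (3.11), Synm (0.468) and Krt19 (0.366) to Krt8 (0.0137) and Krt18 (0.00570), with Des listed at 0. Synm (0.418 to 0.518 RPKM) and Krt19 (0.311 to 0.438 RPKM) overlapped in WT and did not differ beyond their spread, and neither did Krt8, Krt18 and Des. In the libraries labelled KO, Nes reached 20.2 ± 0.612 RPKM, near Lmnb2 at 28.5 ± 1.02 RPKM. Krt19 (1.33 and 1.37 RPKM) there stood above Synm (0.805 and 0.769 RPKM). By mean RPKM, Nes ranked 9202 of the genes tested in WT and 4088 in the libraries labelled KO.

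**Figure D1:**
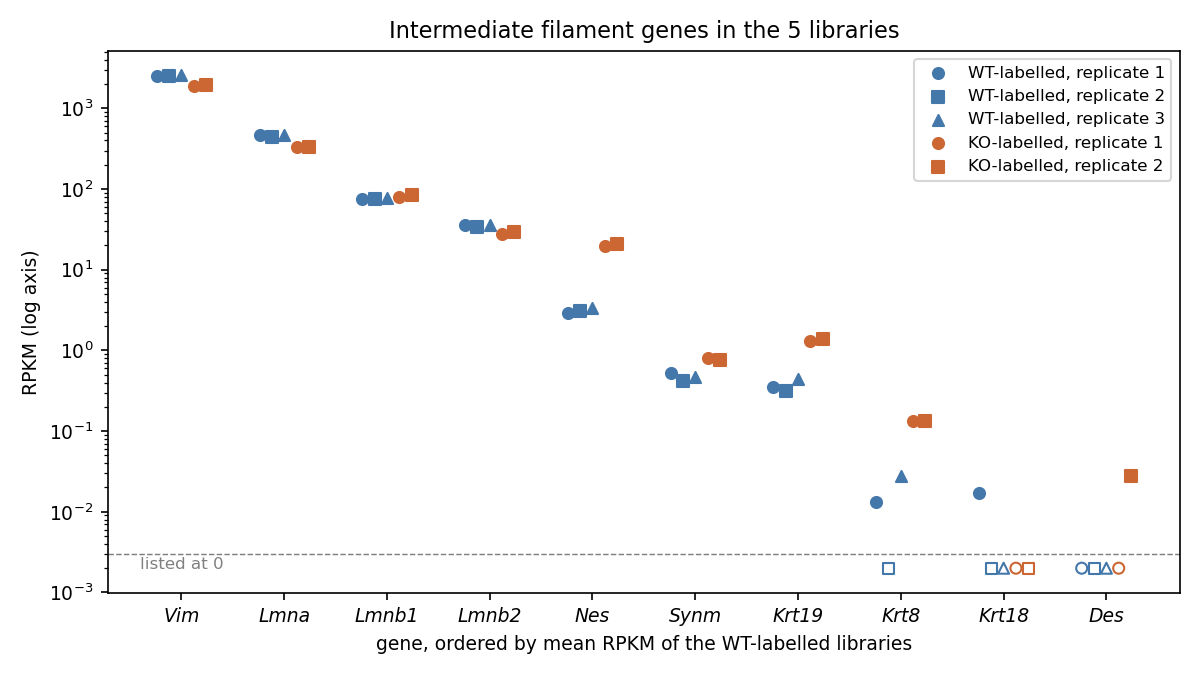
RPKM of each member in each library on a log axis, WT-labelled in blue and KO-labelled in orange, with one symbol per replicate and open symbols for genes listed at 0. Vim lies at the top and Krt8, Krt18 and Des lie at or near 0, while Nes lies at a mean of 3.11 RPKM in the 3 WT libraries and 20.2 RPKM in the 2 libraries labelled KO.

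Among the 7 tested members, Nes had the largest difference. Its normalized read counts (reads divided by a size factor per library) were 664, 693 and 755 in the WT libraries (replicates 1 to 3 in order, as throughout) and 4471 and 4727 in the libraries labelled KO (replicates 1 and 2). The groups lay far apart, with means of 704 ± 46.5 (SD, n = 3) and 4599 ± 181 (SD, n = 2), a 6.53-fold difference. Among the 6531 tested genes of at least median level, its log2 fold change of 2.71 ranked 5, and among all 13062 tested genes it ranked 185. Level here was the mean over all 5 libraries, those labelled KO included. Because Nes was picked for this rise, these ranks and its place among the members are description only. Nes overlaps no other gene in GENCODE M21, at 87971078 to 87980451 of chromosome 3 on the plus strand. The median log2 fold change of the 114 tested genes within 5 Mb was -0.0049.

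The 5 genes whose profile over the libraries was nearest to that of Nes were Igfbp7, Gnao1, Celf2, Rian and Runx1t1. Nearness was the root mean square difference of log2(value + 1) after each gene's own mean was removed, and came to 0.0607, 0.0861, 0.0901, 0.0925 and 0.103. Igfbp7, a secreted protein of the insulin-like growth factor binding family, stood at 217, 215 and 239.6 normalized reads in WT and 1552 and 1467 in the libraries labelled KO. Gnao1, a G protein subunit, and Runx1t1, a transcriptional corepressor, averaged 33.5 and 119 in WT and 239.5 and 846 in the libraries labelled KO. Rian, an imprinted noncoding RNA, and Celf2, for an RNA-binding protein, had KO-labelled means 6.16-fold and 6.42-fold those of WT. With 5 libraries in 2 groups, this likeness mainly records a similar fold change, and no correlation was computed.

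Of the 9 other members, 6 had at least 10 normalized reads in at least 2 libraries and were tested. All 6 passed at an adjusted p under 0.05 (limma, adjusted over all 13062 genes), with Synm, Lmnb1 and Krt19 (3 genes) higher under the KO label and Vim, Lmna and Lmnb2 (3 genes) lower. In the same fit 65.3% of all genes tested passed, 32.6% as higher and 32.6% as lower, and nothing particular to the family can be read from this count. The groups did not overlap for any of the 7 tested members, Nes included, nor for 75.4% of all genes tested. The median size of the log2 fold change was 0.43 for the 6 and 0.30 for all genes.

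Synm rose by 0.76 ± 0.138 (standard error) on the log2 scale (limma, adjusted p = 6.1e-05). Its normalized reads were 150.3, 121.7 and 136.0 in WT and 233.5 and 225.7 in the libraries labelled KO. The lowest library labelled KO thus stood above the highest WT library, and the means of 136.0 ± 14.3 (SD, n = 3) and 229.6 ± 5.46 (SD, n = 2) differed 1.69-fold. Synm (chromosome 7, 67730160 to 67759742) lies wholly inside Ttc23, which is read from the other strand. Whether counting used strand is not given in the sources used here, and the exons of both genes share 84 bp of the 7933 bp of Synm exons. Ttc23 fell, from between 624 and 688 normalized reads in WT to 447 and 507 (limma, log2 fold change -0.46, adjusted p = 4.6e-05). The 426 bp of Gm45102, an unclassified transcript, also lie in Synm exons.

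Vim and Lmna, the members with the highest RPKM, both fell. Vim stood at 168075, 170052 and 173296 normalized reads in WT and at 128946 and 132864 in the libraries labelled KO. These groups lay apart, at 170475 ± 2636 (SD, n = 3) and 130905 ± 2771 (SD, n = 2), so that Vim was 1.30-fold higher in WT (log2 fold change -0.38, standard error 0.043, limma adjusted p = 1.0e-07). It lies on chromosome 2 from 13573927 to 13582826, where the 28 tested genes within 5 Mb had a median log2 fold change of 0.068. Nes, whose protein needs a partner such as vimentin to form filaments, was thus exceeded by Vim in RPKM by 846, 819 and 767 times in WT and by 96.3 and 93.9 times in the libraries labelled KO.

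Lmna, the A-type lamin gene, gave 57331, 54399.7 and 56733 normalized reads in WT and 40276 and 40776 in the libraries labelled KO. Its means were 56155 ± 1549 (SD, n = 3) and 40526 ± 353 (SD, n = 2), 1.39-fold higher in WT (log2 fold change -0.47, standard error 0.039, limma adjusted p = 7.2e-10). Lmna (chromosome 3, 88480147 to 88509956, minus strand) has its 3′ end 499.7 kb beyond the end of Nes, and these neighbouring members differed in opposite directions. Gene totals do not separate lamin A from lamin C.

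The B-type lamin genes differed less. Lmnb2 fell from 4517, 4184 and 4423 to 3454 and 3679.7 normalized reads (log2 fold change -0.29, standard error 0.045, limma adjusted p = 6.3e-06). Lmnb1 stood at 7869.9, 7837 and 8108 in WT and at 8426 and 9023 in the libraries labelled KO, a rise of 0.14 on the log2 scale (standard error 0.039, adjusted p = 0.0049). Each group was thus clear of the other, by a narrow margin for Lmnb1. Both differences were close to those of the genes around them: the median log2 fold change within 5 Mb was -0.27 over 155 genes for Lmnb2 (chromosome 10, 80901203 to 80918245) and 0.16 over 34 genes for Lmnb1 (chromosome 18, 56707813 to 56753424). With that local median removed, a setting chosen after the data were seen, both calls ended, at -0.023 for Lmnb2 (adjusted p = 0.67) and -0.020 for Lmnb1 (adjusted p = 0.68). The call of Lmnb1 also ended without KO replicate 2, at 0.086 (limma, adjusted p = 0.070), where 1 library labelled KO is assumed to vary like the others.

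**Figure D2:**
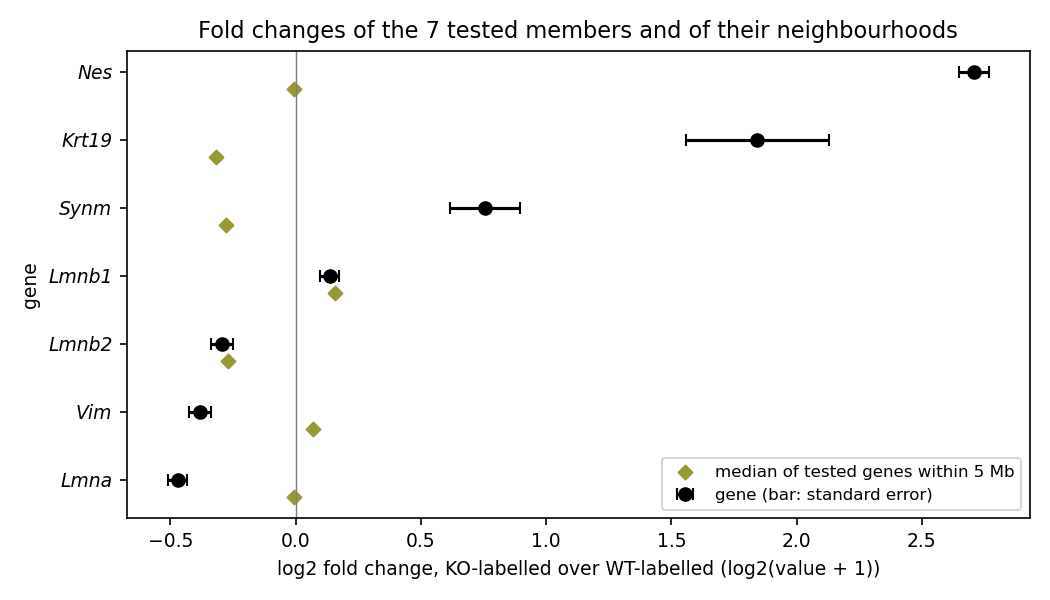
Log2 fold change of the 7 tested members with its standard error (black) and the median log2 fold change of the tested genes within 5 Mb of each (diamonds). Nes, Krt19, Synm, Vim and Lmna stand away from their diamonds, while Lmnb1 (0.14 beside 0.16) and Lmnb2 (-0.29 beside -0.27) lie on theirs.

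The balance of A-type to B-type lamin transcripts was lower in both libraries labelled KO. The RPKM of Lmna divided by the sum of Lmnb1 and Lmnb2 was 4.19, 4.09 and 4.10 in WT and 3.04 and 2.87 in the libraries labelled KO. The means of 4.13 ± 0.0590 (SD, n = 3) and 2.95 ± 0.115 (SD, n = 2) lay apart, with p = 0.2 in an exact two-sided permutation test. This form of the test doubles the p of a single direction, and 0.2 is the smallest value it can give for 3 against 2 libraries. Within the B-type pair, the ratio of Lmnb1 to Lmnb2 was 2.07, 2.22 and 2.17 in WT and 2.89 and 2.91 in the libraries labelled KO (exact permutation p = 0.2). Over all 10 members the summed RPKM was 3065, 3060.3 and 3138 in WT and 2366 and 2406 in the libraries labelled KO. Vim made up between 80.6% and 81.9% of that sum in every library. The share of Nes was 0.0958%, 0.09999% and 0.106% in WT and 0.837% and 0.859% in the libraries labelled KO.

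**Figure D3:**
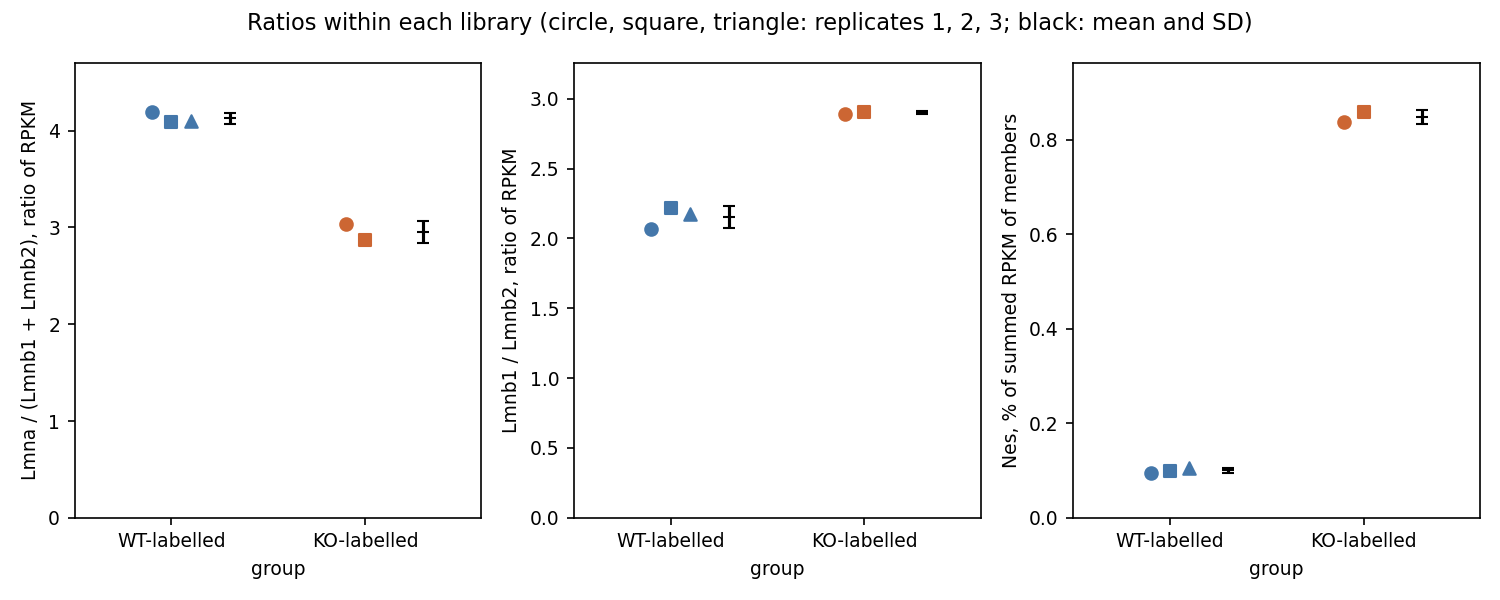
RPKM ratios within each library: Lmna over both B-type lamin genes, Lmnb1 over Lmnb2, and Nes as a percentage of the summed RPKM of the 10 members, with the mean and SD of each group in black and axes from 0. The Lmna ratio is lower, and the other values are higher, in both libraries labelled KO than in the 3 WT libraries.

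Of the member keratins, Krt19 alone had enough reads to be tested. It rose from 17.7, 15.8 and 22.2 normalized reads in WT to 67.2 and 70.1, with means of 18.6 ± 3.28 (SD, n = 3) and 68.6 ± 2.04 (SD, n = 2), a 3.70-fold difference. On the log2 scale the rise was 1.84 ± 0.286 (standard error; limma, adjusted p = 8.3e-06). The level stayed low, at 1.35 RPKM, or rank 10287 of the genes tested. Krt19 lies on chromosome 11 from 100140810 to 100148665, where the 178 tested genes within 5 Mb had a median log2 fold change of -0.32.

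Krt8, Krt18 and Des stayed under the level needed for the test. Krt8, the type II partner of Krt18 and Krt19, had 1, 0 and 2 reads in WT and 8 reads in each library labelled KO. Per unit of depth, its 16 pooled reads against 3 gave a ratio of 9.51 with an exact 95% interval from 2.72 to 50.9, which covers counting error only. The authors' deposited table calls Krt8 higher in the libraries labelled KO, with a log2 fold change of 0.78 and an adjusted p of 0.028, beside 50.5% of genes called in that table. GENCODE M21 also lists a processed pseudogene of Krt8, so its few reads are uncertain. Krt18, only 23.7 kb from Krt8 on chromosome 15, had 1 read in WT replicate 1 and 0 in every other library, also in the libraries where Krt8 had 8 reads. A count of 0 allows up to 3 reads, or 3.30 and 3.34 normalized reads in the libraries labelled KO. Des had 2 reads in KO replicate 2 and 0 elsewhere, which allows up to 2.65, 2.97 and 2.78 normalized reads in the WT libraries. Exons of Des and Krt8 share bases with a noncoding gene of the other strand (Gm15179 and Gm36026).

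The lists of related genes that follow were written with earlier results of these data known. Their counts are read beside the 32.6% of all genes higher and 32.6% lower, and their medians beside a median log2 fold change of -0.0023 over all genes tested. Among 9 other cytoplasmic filament genes, 3 were tested, 2 rose and Ina, for a neuronal filament, did not pass (log2 fold change -0.51). Their median was 0.87. The peripherin gene Prph, a type III filament of peripheral neurons, had 5.30, 10.9 and 14.8 normalized reads in WT and 42.9 and 34.5 in the libraries labelled KO (log2 fold change 1.90). Sync, for syncoilin, a filament protein of muscle, rose by 0.87 on the log2 scale. The glial and neuronal filament genes Gfap, Nefl and Nefh had 7, 1 and 12 reads in all, and Nefm had 0 in every library.

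Of 48 other keratins in the table, 25 had no read in any library and 4 were tested. Of these, Krt16, Krt12 and Krt10 fell and Krt80 did not pass (log2 fold change -0.065). Krt16, a keratin of stressed epidermis that met the filter through the WT libraries alone, stood at 39.8, 35.6 and 29.6 normalized reads in WT and 3.30 and 4.45 in the libraries labelled KO (log2 fold change -2.88). Krt12, the keratin of the cornea, and Krt10, of differentiating epidermis, fell by 1.79 and 0.58 on the log2 scale. The type I keratin Krt10 (2.74 and 1.82 RPKM) and the type II keratin Krt80 (6.67 and 6.39 RPKM) had higher mean levels per length than Krt19 in both groups. Krt7 and Krt20, other keratins of simple epithelia and chosen after their values were seen, were under the level for the test. Krt7 had 1.77, 0 and 0.925 normalized reads in WT and 5.51 and 10.01 in the libraries labelled KO, while Krt20 had 18.6, 9.89 and 8.33 in WT and 2.20 and 0 there.

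Proteins that tie filaments to junctions and to other parts of the cytoskeleton moved in both directions. All 12 cytolinker and desmosome plaque genes passed the test, 6 higher and 6 lower, with a median log2 fold change of 0.13. Of the 6 higher, Eppk1, for epiplakin, met the filter through the libraries labelled KO alone (7.95, 2.97 and 4.63 normalized reads in WT, 41.8 and 36.7 there). The plakophilin genes Pkp2 and Pkp1, for desmosome plaque proteins, rose by 2.31 and 1.91, Pkp2 from between 278 and 351 to 1592 and 1528 normalized reads. Jup, for plakoglobin of the same plaques, fell from between 15619.6 and 16141 to 6438 and 6928 (log2 fold change -1.25). Plec, for plectin, which binds vimentin, was named after its values were seen and fell from between 95668 and 101729 to 60559 and 71096 normalized reads (log2 fold change -0.60, limma adjusted p = 2.1e-09). Summed over the list, RPKM ran from 322 to 329 in WT and from 228 to 252 in the libraries labelled KO. The call of Pkp3 ended in 5 of the alternatives, among them the fit without WT replicate 1 (limma, adjusted p = 0.067). Without KO replicate 2, its log2 fold change was 0.48. With DESeq2 the calls of Dst and Evpl also ended (adjusted p = 0.069 and 0.055), leaving 4 higher and 5 lower. That of Dst ended too with the local median removed (limma, adjusted p = 0.17).

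Genes of lamina partners and of lamin processing gave 4 higher and 9 lower of 17 tested, with a median log2 fold change of -0.16. Their summed RPKM went the other way, from between 809 and 826 in WT to between 905 and 936 in the libraries labelled KO. Of the 4 higher calls, that of Rce1, for a protease of lamin processing, ended in 8 alternatives and turned to lower with the local median removed (log2 fold change -0.19, limma adjusted p = 0.0036). Without KO replicate 1, Sun2 and Syne1 shrank to log2 fold changes of -0.092 and -0.10, from -0.16 and -0.18. The lower calls of Sun2, Tmpo and Tor1aip1 ended with the local median removed (limma, adjusted p = 0.096, 0.47 and 0.86). That of Syne1 ended with DESeq2 (adjusted p = 0.071) and on RPKM values (limma, adjusted p = 0.095). Banf1, for a chromatin protein that binds lamins, rose from between 6603 and 7018 to 11051 and 10408 normalized reads (log2 fold change 0.65). It had the highest RPKM of the list, at a mean of 225 in WT and 352 in the libraries labelled KO. Fnta, a subunit gene of the farnesyltransferase that modifies prelamin A and B-type lamins, rose by 0.60, while Lemd3, for an inner nuclear membrane protein, fell by 0.47 on the log2 scale. Fntb, for the partner subunit of that enzyme, and Zmpste24, for the protease that matures prelamin A, were named after their values were seen, at -0.36 and 0.17.

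Kinases, chaperones and turnover factors of filaments gave 7 higher and 4 lower of 13, with a median of 0.16. Hspb1, a small heat shock protein gene whose product binds filaments, rose from 25.6, 13.8 and 14.8 to 118 and 141 normalized reads (log2 fold change 2.82). Plk1, a mitotic kinase gene, rose by 0.41 and Rock2, for a kinase of vimentin, fell by 0.42 on the log2 scale. Of the 4 lower calls, 2 were left without WT replicate 2, with a replicate block, with edgeR and in the authors' comparison, and 1 with DESeq2. Those lost were among Cdk5, Pak1 and Cryab. Without KO replicate 1, Pak1 and Cryab had log2 fold changes of -0.13 and -0.43. The call of Plk1 ended with the local median removed (0.045, limma adjusted p = 0.42). Partners of desmin and synemin in the dystrophin complex and costamere gave 2 higher and 4 lower of 10 tested, with a median of -0.087. Ank2, an ankyrin gene, rose from 16.8, 16.8 and 23.1 to 162 and 183, Sgce, for epsilon-sarcoglycan, rose by 2.10, and Sgcd, for delta-sarcoglycan, fell by 1.15 on the log2 scale. Dmd itself, for dystrophin, had 14 reads in all.

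Markers of cell types in which the members are typical were read beside them, and their part in the differences was not tested. Of the neural progenitor markers, where nestin is typical, 2 of 11 were tested, 1 higher and 1 lower, and their summed RPKM was 29.2 to 30.9 in WT and 21.1 to 22.6 in the libraries labelled KO. Sox2, a transcription factor of neural progenitors, made up nearly all of that sum and fell from 2622, 2752 and 2761 to 1842 and 1985 normalized reads (log2 fold change -0.50), in the direction opposite to Nes. Msi1 rose by 1.08 from at most 19.4 normalized reads, a call that ended without KO replicate 2 (limma, adjusted p = 0.14) and with DESeq2 (adjusted p = 0.12). Sox1 and Olig2 had 0 reads, and Prom1, Hes5, Dcx and Pou3f2 had 1 read each over the 5 libraries. Schwann and neural crest markers gave 1 lower gene of 4 tested, Ngfr. It met the filter through the WT libraries alone, as did S100b, which did not pass. The summed RPKM of this list was 0.964 to 1.24 in WT and 0.800 to 0.990 in the libraries labelled KO, with Sox10 and Foxd3 at 0. The call of Ngfr ended in 8 of the alternatives, among them the fits without WT replicate 2, WT replicate 3 or KO replicate 1 (limma, adjusted p = 0.086, 0.14 and 0.12).

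Muscle markers, read beside Des and Synm, gave 2 higher and 1 lower of 3 tested for skeletal and heart muscle, with a summed RPKM of 1.01 to 1.18 in WT and 3.22 to 4.07 in the libraries labelled KO. Acta1 and Tnnt2, a skeletal actin and a heart troponin gene, rose by 2.30 and 1.81 on the log2 scale. Ttn, for titin, fell by 1.29. The call of Ttn ended on RPKM values (-0.38, limma adjusted p = 0.12), but there the 0.1 added before the log2 exceeded every Ttn value and shrank the difference. As deposited, Ttn averaged 0.0634 RPKM in WT and 0.0257 RPKM in the libraries labelled KO. The muscle regulators Myod1 and Pax7 had 0 reads. Smooth muscle and pericyte markers gave 6 higher of 7 tested (Smtn did not pass), with a summed RPKM of 343 to 351 in WT and 884 to 916 in the libraries labelled KO. Acta2, Tagln and Cspg4 rose by 1.30, 2.11 and 1.02 on the log2 scale, while Myh11, of mature smooth muscle, had 31 reads in all. Fibroblast markers gave 2 higher and 5 lower of 9 tested, with a summed RPKM of 2644 to 2806 in WT and 2419 to 2611 in the libraries labelled KO. Pdgfra, a growth factor receptor gene, fell from between 19752 and 20181 to 1185 and 1324 normalized reads, and Col3a1 fell by 2.25 on the log2 scale. Col1a2 rose by 0.58, a call that ended with the local median removed (0.064, adjusted p = 0.21).

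Epithelium markers, read beside the keratins, were mostly under the level for the test, with a summed RPKM of 0.220 to 0.453 in WT and 0.685 to 0.800 in the libraries labelled KO. Epcam, an epithelial adhesion gene, stood at 6.19, 4.95 and 7.40 normalized reads in WT and 18.7 and 25.6 in the libraries labelled KO. Esrp2, an epithelial splicing factor gene, had 6.19, 5.94 and 13.0 in WT and 30.8 and 20.02 in the libraries labelled KO and rose by 1.55, a call that ended without KO replicate 1 (limma, adjusted p = 0.079) and with DESeq2 (adjusted p = 0.079). Epcam and Esrp2, the 2 of 9 that were tested, met the filter through the libraries labelled KO alone, so their number shows nothing about the list. Cdh1, for E-cadherin, had 18 reads over the 5 libraries. Mesothelium, which also makes Krt19, gave 1 higher of 2 tested (Bnc1 did not pass), with a summed RPKM of 4.16 to 4.27 in WT and 24.9 to 27.3 in the libraries labelled KO. Msln, for mesothelin, made up most of that sum, at a mean of 2.95 RPKM in WT and 24.8 RPKM in the libraries labelled KO. Bnc1 averaged 1.19 and 1.22 RPKM. Msln rose from 225, 240.4 and 227 to 2029 and 1862 normalized reads (log2 fold change 3.07), while Wt1 had 0 reads and Upk3b 1. Of the endothelium markers, Kdr had at most 2.97 normalized reads in WT and 40.7 and 35.6 in the libraries labelled KO. Of the macrophage and blood markers, Csf1r had 3.54, 8.90 and 12.03 in WT and 27.5 and 37.8 in the libraries labelled KO. Both met the filter through the libraries labelled KO alone. The others tested (Cdh5, Tek and Cd68) did not pass, and of these Tek met the filter through the WT libraries alone. The endothelial sums were 0.159 to 0.222 and 0.368 to 0.435 RPKM, with Tie1 at 0. Of these sums, Kdr alone went from a mean of 0.00797 to 0.189 RPKM. The macrophage and blood sums were 1.85 to 2.06 and 1.601 to 1.75 RPKM, with Hba-a1 at 0. In such bulk samples a larger number of cells of a type and more RNA per cell cannot be told apart.

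**Figure D4:**
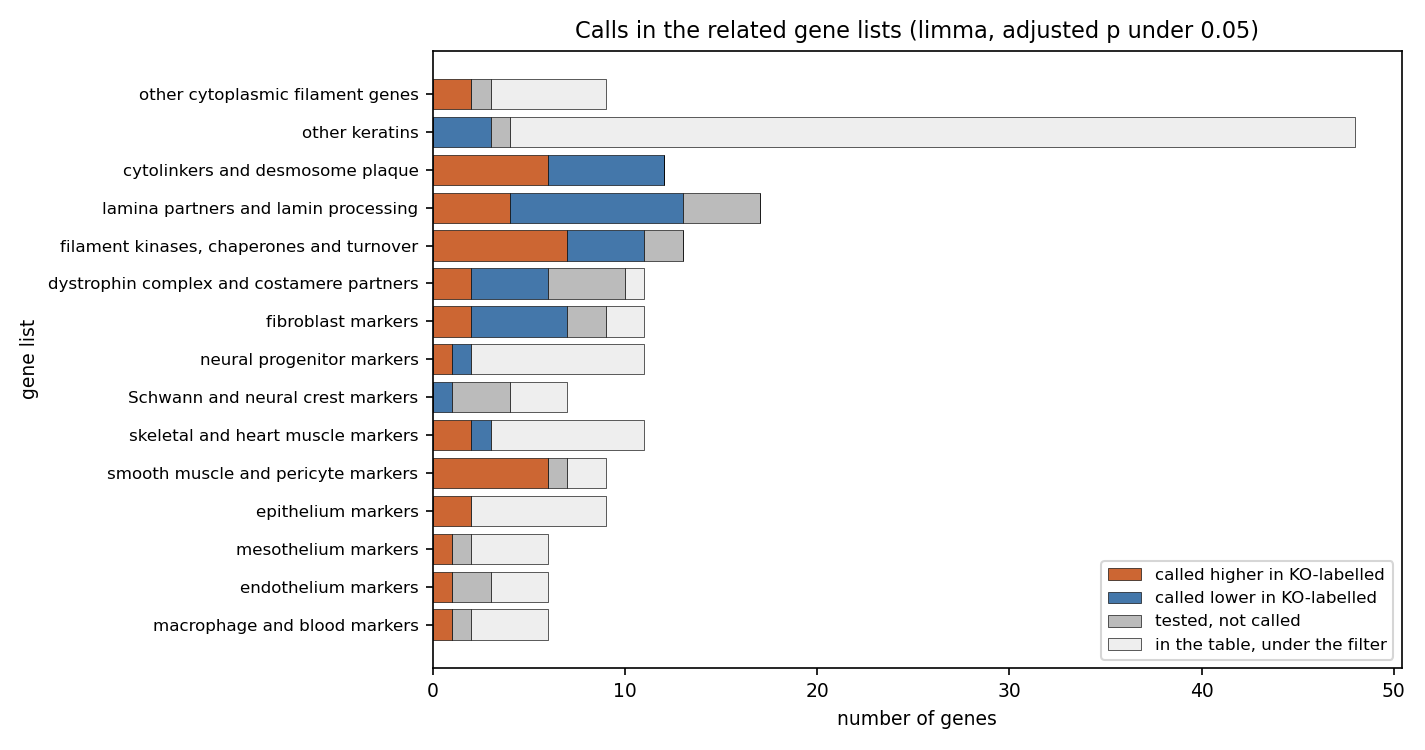
Number of genes per list that were called higher or lower in the libraries labelled KO, tested but not called, or under the level needed for the test. All 12 cytolinker and desmosome genes were called and split evenly, while 44 of the 48 other keratins were under the level.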

How the data were processed

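Poly-T selected RNA of 5 libraries was made into Nextera XT libraries for an Illumina NextSeq instrument, per the labels' protocols. STAR, DESeq2 and mm10 are named in the submitters' processing notes, without roles. How genes were counted, including the annotation and use of strand, is not given in the sources used here. Deposited by the authors was a normalized signal, which is, from the values, reads divided by a size factor per library: dividing by 1 step per library made 100% of values whole within 0.1 reads. They also deposited RPKM values, log2 fold changes with a Wald score, p-values and adjusted p-values, per the file headers. Of all genes, 5773 are at 0 throughout and 25 symbols had become dates.

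The main test was limma 3.58.1 in R 4.3.3, with the prior variance trended on mean level, on log2(value + 1), for the 13062 genes with 10 or more in at least 2 libraries, Benjamini-Hochberg adjusted over all of them and called under 0.05, two-sided. This scale understates fold changes of low genes. Counts in lists come from this fit. Positions and overlaps come from GENCODE M21 (GRCm38, the assembly mm10 names). Library depth was 33473103 to 41758681 reads, and intervals cover counting error only. List genes without a match were Syne3 and Muc16, and 2 matched by an older symbol. The genes named were all members, up to 3 called genes of each list with the smallest adjusted p, the defining markers at 0 and the 5 nearest to Nes. Other list genes, such as those with few reads or that did not pass, were named after their values were seen. The members and lists were chosen with earlier results of these data known. The limma procedure was tested on simulated data.

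Alternatives were TMM and median-ratio rescaling, 2 other filters, pseudocounts of 0.5 and 5, each library left out, a replicate block, DESeq2 1.42.0 and edgeR 4.0.16 on the whole reads of the 4 libraries other than WT replicate 2 (whose step is too near 1), the authors' comparison, RPKM values (log2(value + 0.1)) and, added after the data were seen, removal of the median within 5 Mb.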

Additional observations from a re-analysis of the deposited data

How the results depend on the processing

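Across 17 alternatives, Nes kept a log2 fold change between 2.66 and 2.76. Median-ratio rescaling returned the main fit, with 4259 genes higher and 4264 lower in both. The deposited values are already divided by a size factor, so that alternative is no separate check. The replicate block repeats the log2 fold changes found without WT replicate 3. The calls of Vim (-0.45 to -0.36), Lmna (-0.49 to -0.46) and Synm (0.65 to 1.03) held in all 17, and that of Krt19 (1.46 to 2.16) in the 16 that tested it, since a mean of 50 or more leaves it out. Lmnb1 turned to -0.020 and Lmnb2 shrank to -0.023 with the local median removed, and the Lmnb1 call ended without KO replicate 2 (0.086). With a replicate block, 3958 genes were higher and 3947 lower, against 4259 and 4264 without it, and no member's call changed. Replicate 3 exists in WT only, so the block takes that library out of the contrast. Leaving WT replicate 3 out without a block gave 4001 higher and 3947 lower. Deviations of same-numbered libraries from their group means correlated at -0.0097 and -0.0050. With 2 libraries labelled KO, their deviations mirror each other, so both values rest on the same difference. They show no pairing by number, and a shared culture or preparation was not tested. Krt8 passed where it was tested with no filter (limma, log2 fold change 2.49, adjusted p = 0.0052), while Des (0.84, 0.30) and Krt18 (-0.30, 0.67) did not. Depth limits Krt8, Krt18 and Des, at 0 to 8 reads a library. No scaling moved the median of all genes by more than 0.1. TMM, median-ratio and RPKM values gave medians of -0.0067, -0.0023 and -0.0079.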
